A study of Homo sapiens with 2 samples.

Results

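GDF15 and 9 genes of the ATF4-CHOP stress response (PPP1R15A, CHAC1, ATF4, DDIT3, TRIB3, ASNS, ATF5, CEBPB and VLDLR) were followed in human DLD-1 colorectal carcinoma cells with inducible p53. Every probe set annotated to 1 of these genes alone was taken, which gave 18 probe sets for 10 genes, out of 41091 probe sets for 19775 genes on the array. No probe set was shared between a member and another gene. The p53 on cells had been grown for 9 h without tetracycline, and the p53 off cells had been kept in tetracycline. Both carried the same stable tet-off transgene of wild-type p53, which tetracycline silences, and DLD-1's own p53 gene is mutated. Tetracycline and p53 therefore differed together between the arrays, and their parts in any ratio cannot be told apart. Each condition was measured on 1 Affymetrix array, so every ratio describes these 2 arrays, and no test between the conditions was possible. Whether the line was 1 clone is not stated in the labels. The members were chosen by their p53 on over p53 off signals on these arrays, so their ratios are a description.

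The integrated stress response begins when 1 of several kinases phosphorylates the translation factor eIF2 on its alpha subunit. Bulk protein synthesis slows, while the messenger RNAs of the transcription factors ATF4 and ATF5 are translated better, because short reading frames upstream of their coding sequence are then bypassed. ATF4 raises transcription of genes for amino acid supply and of DDIT3, which encodes the factor CHOP, and PPP1R15A closes the loop by bringing a phosphatase back to eIF2. GDF15 is a secreted cytokine of the TGF-beta superfamily that acts on appetite through a receptor in the hindbrain. It is known both as a target of p53 and as an output of ATF4 and CHOP.

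Stretches of 5 promoters are shown because their genes differed in ratio, and each has 1 element marked. They are RefSeq sequences of build GRCh38.p14, 60 bases each, read 5′ to 3′ on the gene's own strand. Capitals mark the ATF4 element TGATGNAA in CHAC1 (there on the other strand) and ASNS, the cyclic AMP response element TGACGTCA in PPP1R15A, the AP-1 element TGANTCA in DDIT3 and the TATA box TATAAA in GDF15. The PPP1R15A stretch also ends in those TATA letters, left in lower case.
CHAC1, chr15:40953236-40953295, plus strand: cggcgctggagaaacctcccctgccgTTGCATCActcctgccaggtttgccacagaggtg
ASNS, chr7:97872443-97872502, minus strand: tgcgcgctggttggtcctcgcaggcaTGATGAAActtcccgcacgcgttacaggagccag
PPP1R15A, chr19:48872337-48872396, plus strand: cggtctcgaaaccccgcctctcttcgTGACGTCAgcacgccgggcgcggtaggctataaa
DDIT3, chr12:57520705-57520764, minus strand: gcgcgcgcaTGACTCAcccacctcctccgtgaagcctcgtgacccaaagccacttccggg
GDF15, chr19:18386098-18386157, plus strand: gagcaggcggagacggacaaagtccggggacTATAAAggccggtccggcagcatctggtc

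All 10 genes were matched to RefSeq promoters, with 18 start sites between them, each read from 250 bases before to 50 after the start and on both strands. TGATGNAA was found in CHAC1, 209 bases before the start, and in ASNS, 68 bases before it. Among all 35116 start sites in the table, 3.62% held it. TGACGTCA, present in 1.85% of start sites, was found in PPP1R15A alone among the members, 58 bases before the start. TGANTCA, present in 7.71%, was found in DDIT3 and ATF5. For GDF15, ATF4, TRIB3, CEBPB and VLDLR none of these 3 sets of letters was found in the windows searched. A match is a run of letters and not a measured binding site.

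The values are linear MAS5 signals, 1 per probe set. Signals under a floor of 112.4, the median of all non-control signals on both arrays, were set to that floor, so a ratio with 1 signal under it is a bound and is written "at least". A probe set with both signals under the floor was called not measured. The brightest probe set by mean signal stood for a gene, and 2-fold was the size at which a gene was called higher or lower. The beta-actin control had a 3′ signal 7.29 times its 5′ signal on the p53 on array, against 1.37 times on the p53 off array, and the GAPDH control had 1.77 times against 0.97 times. The spike-ins added at hybridization differed as well, with a median p53 on over p53 off ratio of 1.89. Scaled to them, the median gene would have a log2 ratio of -0.80 in place of 0.0035, so all directions are relative to the median gene. The part of these differences in the results was not tested.

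The cells carried epithelial markers. All 7 epithelial markers were above the floor on both arrays, with a summed signal of 172161 with p53 on and 107010 with p53 off, and EPCAM, an epithelial adhesion gene, read 35534 and 20250.4. Of the leukocyte markers with a probe set, 1 of 4 was above the floor with p53 on (LYZ, at 160.3) and 0 of 4 with p53 off. The fibroblast markers above it numbered 3 of 6 with p53 on and 2 of 6 with p53 off, and the endothelial ones 3 of 5 and 1 of 5. The brightest of these 3 lists read 224 with p53 on (PECAM1) and 217 with p53 off (THY1).

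The members did not move together. Of the 10 genes, 3 were at least 2-fold higher with p53 on (CHAC1, CEBPB and DDIT3), 2 were at least 2-fold lower (GDF15 and PPP1R15A) and 5 lay between. Over all 13915 measured genes, 15.3% passed 2-fold upward and 13.5% passed it downward. Because the choice of members used the same contrast, nothing is read from their share. Their median log2 ratio was 0.054, beside 0.0035 over all measured genes, and their ratios ran from -2.53 to 2.05. By probe set, 4 of the 16 measured passed 2-fold upward and 6 downward, beside 14.0% and 13.0% of all 25962 measured probe sets. Of the 10 gene ratios, the closest to a 2-fold line were those of DDIT3, just past it at 1.06, and ATF5, just short of it at -0.9995. In bulk RNA, fewer cells that express a gene and less of its RNA per cell cannot be told apart.

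**Figure D1:**
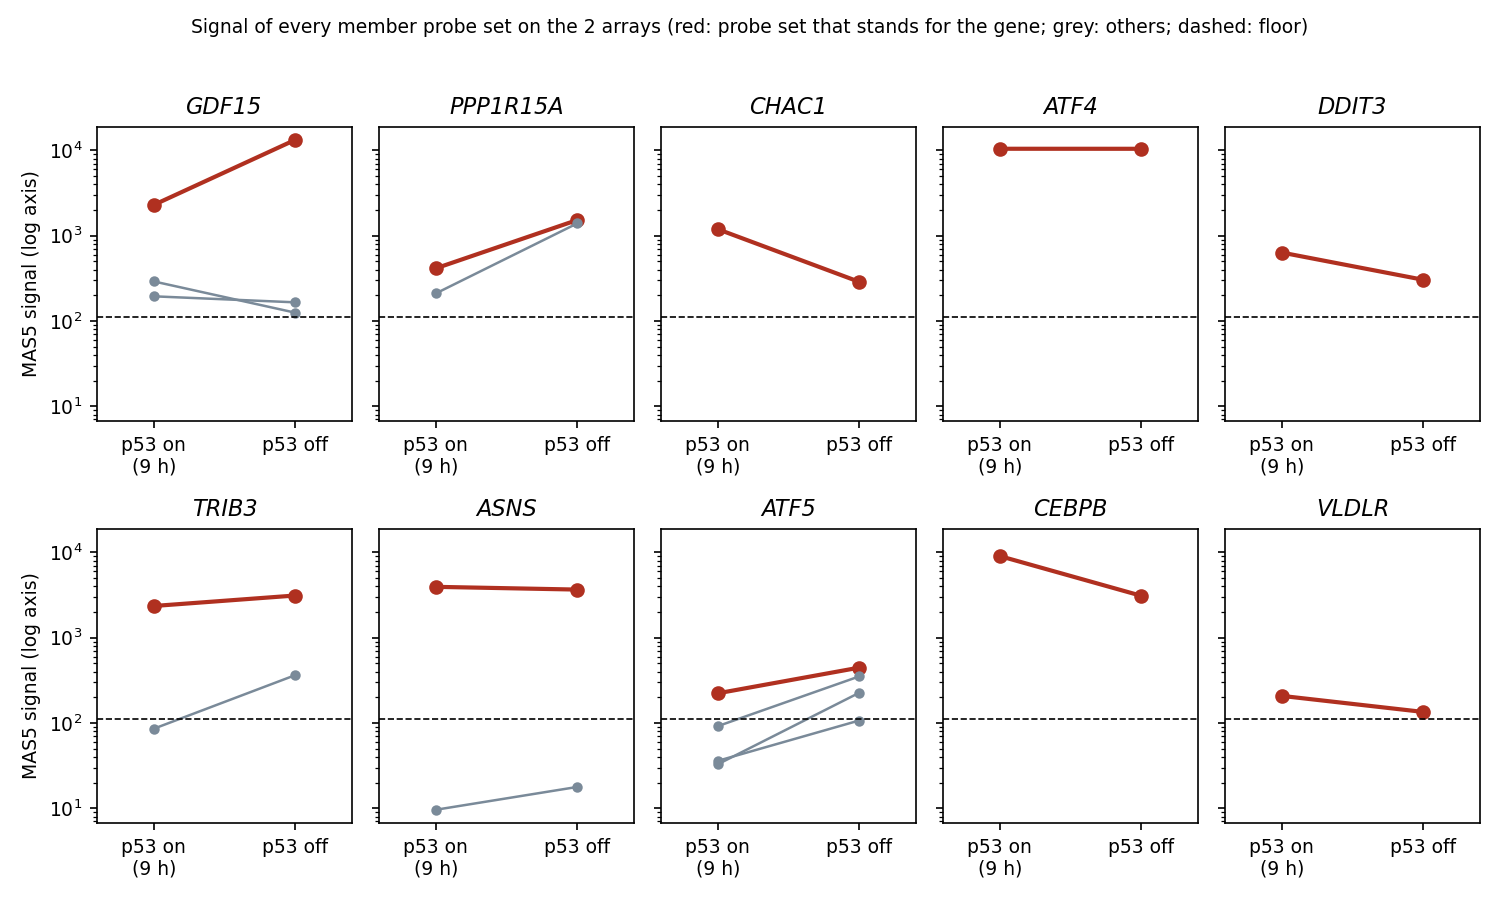
MAS5 signal (log axis) of every member probe set on the p53 on array (left) and the p53 off array (right) of each panel, with the probe set that stands for the gene in red, others in grey and the floor of 112.4 dashed. The red line of GDF15 is higher on the p53 off array while its grey lines are higher on the p53 on array, and all probe sets of PPP1R15A and ATF5 are lower with p53 on.

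GDF15, the secreted cytokine, gave opposite answers on its probe sets. Probe set 221577_x_at read 2295 with p53 on and 13288 with p53 off, which is 5.79-fold lower. Probe set 221576_at read 291 with p53 on and 125 with p53 off, 2.32-fold higher. Probe set 229868_s_at read 195 and 165, 1.18-fold higher. The first carries the gene's ratio because its signal was highest, and only 0.40% of measured genes had a lower ratio. The suffix _x_at marks a probe set with probes that can match other sequences, and _s_at one that can match several transcripts. With both kinds left out, GDF15 stood at a log2 ratio of 1.22, and over the mean of its 3 probe sets at -0.36. On these arrays, of the 996 genes whose brightest probe set was at least 2-fold lower and that had another measured one, 117 (11.7%) had all the others above 0, and 24 (2.41%) had another at least 2-fold higher. The direction of GDF15 therefore rests on 1 probe set, and the part of probe position along the transcript was not tested.

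PPP1R15A, also known as GADD34, encodes the stress-induced subunit that directs protein phosphatase 1 to eIF2. Its probe set 37028_at read 414 with p53 on and 1525 with p53 off, 3.69-fold lower. Its other probe set, 202014_at, read 210.2 and 1392, 6.62-fold lower. Unlike GDF15, the gene had the same direction on both. Of 6680 genes with more than 1 measured probe set, 264 (3.95%) were at least 2-fold lower on every one of them.

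Among the transcription factors, ATF4 read 10459 with p53 on and 10449.8 with p53 off on its single probe set, a log2 ratio of 0.0013. Only 0.15% of measured genes had a ratio closer to 0. ATF4 is known to be controlled mainly through translation, which an RNA array does not measure. ATF5, its close relative with similar upstream reading frames, was dimmer with p53 on across all its probe sets. Probe set 204998_s_at read 223 with p53 on and 445 with p53 off, a log2 ratio of -0.9995, just short of 2-fold. Probe set 204999_s_at read 91.7 and 351, at least 3.13-fold lower, and 230938_x_at read 32.8 and 226, at least 2.01-fold lower. The fourth, 217389_s_at, was not measured, at 35.9 and 107. All 4 are of the kinds marked for shared sequence. Among the 3093 genes with 3 or more measured probe sets, 753 (24.3%) were lower on all of them.

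DDIT3 encodes CHOP, a factor that ATF4 induces and that promotes cell death under lasting stress. It read 634 with p53 on and 304 with p53 off, 2.08-fold higher on its single probe set, and 14.1% of measured genes had a higher ratio. CEBPB encodes C/EBP beta, a basic leucine zipper factor that pairs with CHOP and ATF4. It was 2.92-fold higher, at 9058 with p53 on and 3101 with p53 off, and 8.14% of measured genes had a higher ratio. DDIT3 and CEBPB were higher with p53 on, while ATF4 was level.

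Among the outputs of ATF4 and CHOP, CHAC1 had the largest ratio of the members. It encodes an enzyme that degrades glutathione. It read 1192 with p53 on and 288 with p53 off, 4.14-fold higher, and 4.56% of measured genes had a higher ratio. ASNS, the asparagine synthetase gene and a classic ATF4 target, read 3948 with p53 on and 3667 with p53 off, 1.08-fold higher. Its second probe set was not measured, at 9.59 and 17.8. CHAC1 and ASNS both hold the ATF4 element printed above, and their ratios differed.

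TRIB3, a pseudokinase gene induced by ATF4 and CHOP, read 2354 with p53 on and 3124 with p53 off on probe set 218145_at, a log2 ratio of -0.41. On 1555788_a_at it read 85.6 and 363, at least 3.23-fold lower. Both probe sets were lower, by unequal sizes, and the brighter one did not reach 2-fold. VLDLR, a lipoprotein receptor gene that the eIF2 kinase PERK and ATF4 are known to raise, read 208 with p53 on and 135 with p53 off. This was 1.54-fold higher, but both signals lay near the floor.

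**Figure D2:**
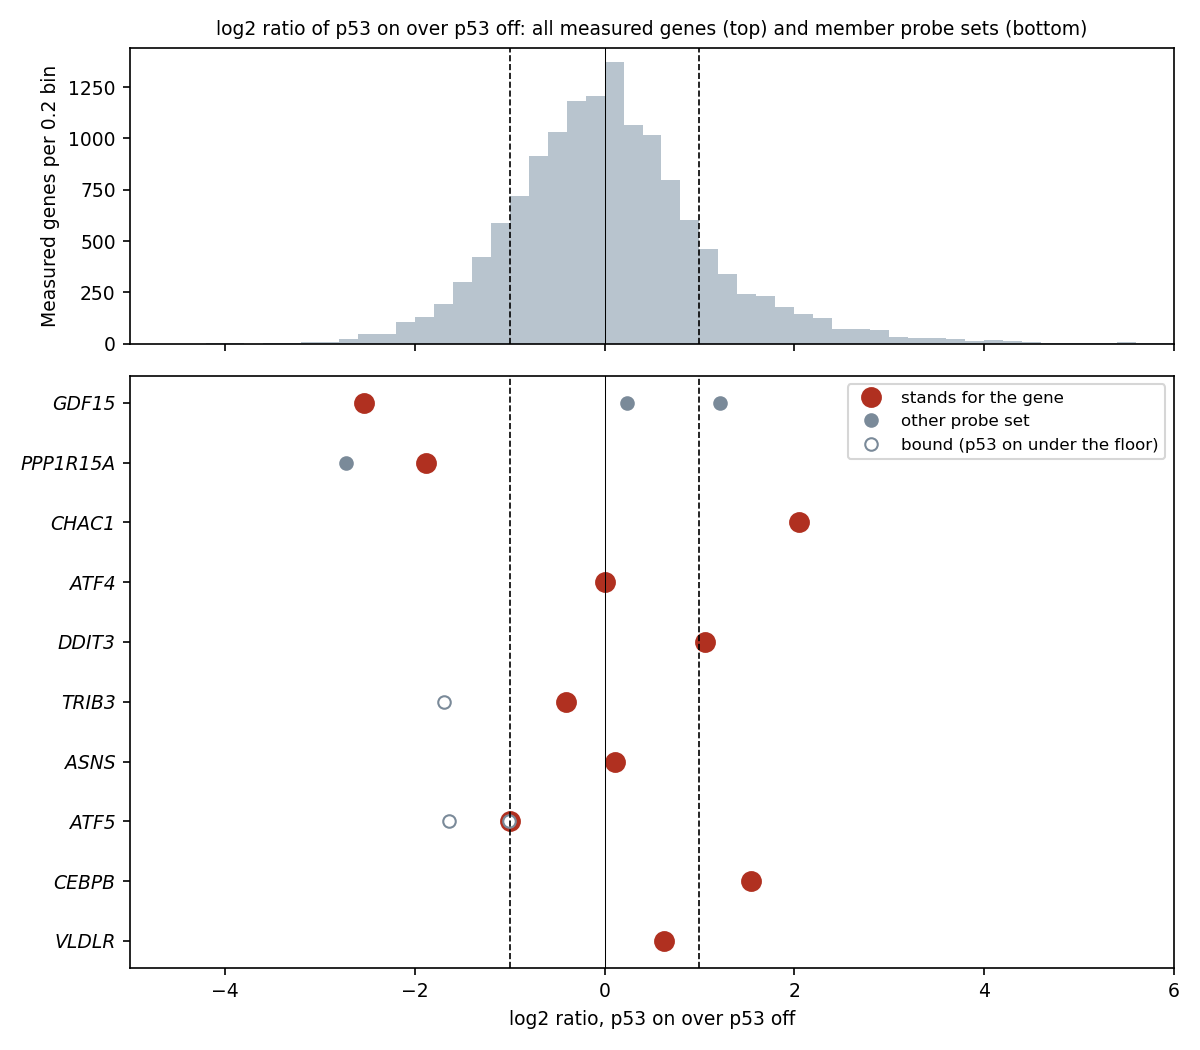
The upper panel is a histogram of the log2 ratio of p53 on over p53 off for all 13915 measured genes, and the lower panel places each measured member probe set on the same axis, with the 2-fold lines dashed and bounds hollow. CHAC1, CEBPB and DDIT3 lie right of the upper 2-fold line, PPP1R15A lies left of the lower one on both probe sets, and the probe sets of GDF15 lie on either side of 0.

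The rest of the pathway was read from 8 lists with 98 genes, of which 87 were measured. Of these, 14 (16.1%) passed 2-fold upward and 18 (20.7%) downward, beside 15.3% and 13.5% of all measured genes. Their median log2 ratio was 0.095. The lists were drawn up with earlier results of these arrays known.

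At the start of the pathway, 2 phosphatase genes were lower along with PPP1R15A. PPP1R15B, the constitutive counterpart of PPP1R15A, read 2022 with p53 on and 4602 with p53 off, 2.28-fold lower. PPP1CA, a catalytic subunit of protein phosphatase 1, read 1229 and 2832, 2.30-fold lower. The other catalytic subunits, PPP1CB and PPP1CC, had log2 ratios of -0.85 and 0.17. After quantile normalization PPP1R15B and PPP1CA had log2 ratios of -1.16 and -1.12, and after loess PPP1R15B still passed 2-fold while PPP1CA, at -0.97, did not. Of the 16 genes of this list, 5 passed 2-fold downward and 1 upward, beside 13.5% and 15.3% of all measured genes. The median log2 ratio was -0.35. The downward count was 3 after loess, 2 without probe sets marked for shared sequence and 11 with spike-in scaling, and the upward count was 0 in the last pair of settings and over the mean of probe sets. The other lower ones were EIF2B4 and EIF2B3, subunits of the exchange factor that recharges eIF2, at log2 ratios of -1.48 and -1.34, and EIF2AK1, the haem-regulated eIF2 kinase, at -1.09 with its other probe set at -0.80. The higher one was EIF2AK4, which encodes GCN2, the kinase that senses uncharged transfer RNA. It read 3679 with p53 on and 1134 with p53 off, 3.24-fold higher, but its other probe set had a log2 ratio of -0.91. EIF2AK3, the gene of PERK, was at 0.044.

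The amino acid genes known as ATF4 targets went both ways. Of 10 measured genes of amino acid synthesis and one-carbon metabolism, 2 passed 2-fold upward and 3 downward, and the median log2 ratio was 0.029. The shares over all measured genes were 15.3% and 13.5%, here and for the transporters and synthetases below. The upward count was 1 after loess and 0 with spike-in scaling. PSAT1, a serine synthesis enzyme, read 15988 with p53 on and 7080 with p53 off, 2.26-fold higher, although its other probe set was at -0.0078. CBS, which makes cystathionine, was at least 2.20-fold higher. GOT1, the cytosolic aspartate aminotransferase, was 2.76-fold lower and PYCR1, a proline synthesis enzyme, 2.10-fold lower. CTH, which makes cysteine, was 2.65-fold lower on its brighter probe set and had a log2 ratio of -0.29 on the other. Of 7 measured transporters none passed 2-fold upward and 2 passed it downward, and the median was 0.34. These were the glutamine carrier gene SLC1A5, at 847 with p53 on and 2653 with p53 off, and SLC3A2, the shared chain of several amino acid exchangers, at 1572 and 3984. Of 11 measured aminoacyl-tRNA synthetases, LARS1 was 2.17-fold higher and AARS1 2.56-fold lower, and the list's median was 0.39. The 4 measured probe sets of LARS1 reached down to a log2 ratio of 0.018, and no synthetase was 2-fold higher once probe sets marked for shared sequence were left out.

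The list of other outputs of ATF4 and CHOP had the highest median of the 8, at 0.94 over 11 measured genes. Of these, 5 passed 2-fold upward and 1 downward, beside 15.3% and 13.5% of all measured genes. BCL2L11, which encodes the cell death protein BIM, read 8866 with p53 on and 367 with p53 off, 24.2-fold higher on its brightest probe set, but its other measured probe sets reached down to a log2 ratio of 0.27. DDIT4, which restrains mTORC1, was 16.0-fold higher. ATF3, a stress-induced transcription factor, read 2974 and 506, 5.88-fold higher, while its other probe set was at -0.14. The remaining higher ones were TNFRSF10B, a death receptor gene, at 2.07 with another probe set at 0.58, and NUPR1, a stress-induced chromatin factor, at 1.25. DDIT4 and TNFRSF10B are also known targets of p53. JDP2, a partner of AP-1 factors, was at least 3.13-fold lower, at 91.7 with p53 on and 351 with p53 off. Without probe sets marked for shared sequence, 2 genes of the list were at least 2-fold higher, as were 15.4% of all measured genes. The list's median was 0.14 there, no longer the highest of the 8. The synthetases, the ATF6 and IRE1 genes and the C/EBP and ATF genes then had higher medians, at 0.43, 0.25 and 0.18. With all probe sets kept, SESN2, CEBPG and ERO1A had log2 ratios between 0.84 and 0.94. Other probe sets of these genes reached down to 0.23, 0.34 and -0.68.

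The other branches of the unfolded protein response went both ways. Of 16 measured genes of the ATF6 and IRE1 branches, 14 lay within 2-fold, as did 71.2% of all measured genes. Their log2 ratios ran from -1.06 to 1.30, with a median of 0.032. Without probe sets marked for shared sequence, 3 were at least 2-fold higher, as were 15.4% of all measured genes. With spike-in scaling, 7 were at least 2-fold lower, as were 41.4% of all measured genes. HSPA5, the gene of the main endoplasmic reticulum chaperone BiP, read 18865 with p53 on and 15905 with p53 off. EDEM1, which helps clear misfolded glycoproteins, was 2.46-fold higher. PDIA4, a disulfide isomerase gene, was 2.09-fold lower by its brighter probe set, while another of its probe sets was at 1.03.

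Among the relatives of the basic leucine zipper members, the C/EBP genes had positive ratios with CEBPB. Of the 5 measured C/EBP genes, CEBPB included, 4 were at least 2-fold higher, beside 15.3% of all measured genes. The fifth, CEBPG, was 1.92-fold higher, with its other probe set at a log2 ratio of 0.34. This grouping was chosen after the values were seen. CEBPA, a differentiation factor, read 643 with p53 on and 212 with p53 off, 3.03-fold higher. CEBPD read 2231 and 1033, 2.16-fold higher. CEBPE read 257 and 106, at least 2.29-fold higher, with its p53 off signal under the floor. With spike-in scaling all 5 ratios were positive, the smallest being 0.021 for CEBPG. None of the 5 reached 2-fold there, while 5.86% of all measured genes passed it upward. Among ATF relatives, ATF3, described above, was 5.88-fold higher on its brighter probe set, the highest ratio of this list. ATF2 was 2.22-fold lower, ATF6B at least 2.41-fold lower and BATF 2.11-fold lower. CREBZF had a log2 ratio of -1.28 on its brightest probe set and of 0.72 on another. In the list as a whole, which leaves out CEBPB, 4 of 12 measured genes (CEBPA, CEBPD, CEBPE and ATF3) passed 2-fold upward and 4 downward. The shares over all measured genes were 15.3% and 13.5%. The median was 0.18. Without probe sets marked for shared sequence, 2 genes of this list passed it upward and 3 downward, beside 15.4% and 12.4% of all measured genes.

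Of the members' own relatives and partners, 7 were measured. RET, the signalling partner of the GDF15 receptor, read 370.03 with p53 on and 113.9 with p53 off, 3.25-fold higher, from a signal close to the floor. ASNSD1, a gene with an asparagine synthetase domain, was 2.15-fold lower. The rest lay within 2-fold, among them TRIB1 and TRIB2 at -0.033 and 0.41, CHAC2 at -0.67 and the lipoprotein receptor gene LRP8 at 0.70. RELN, a ligand of VLDLR, was not measured.

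**Figure D3:**
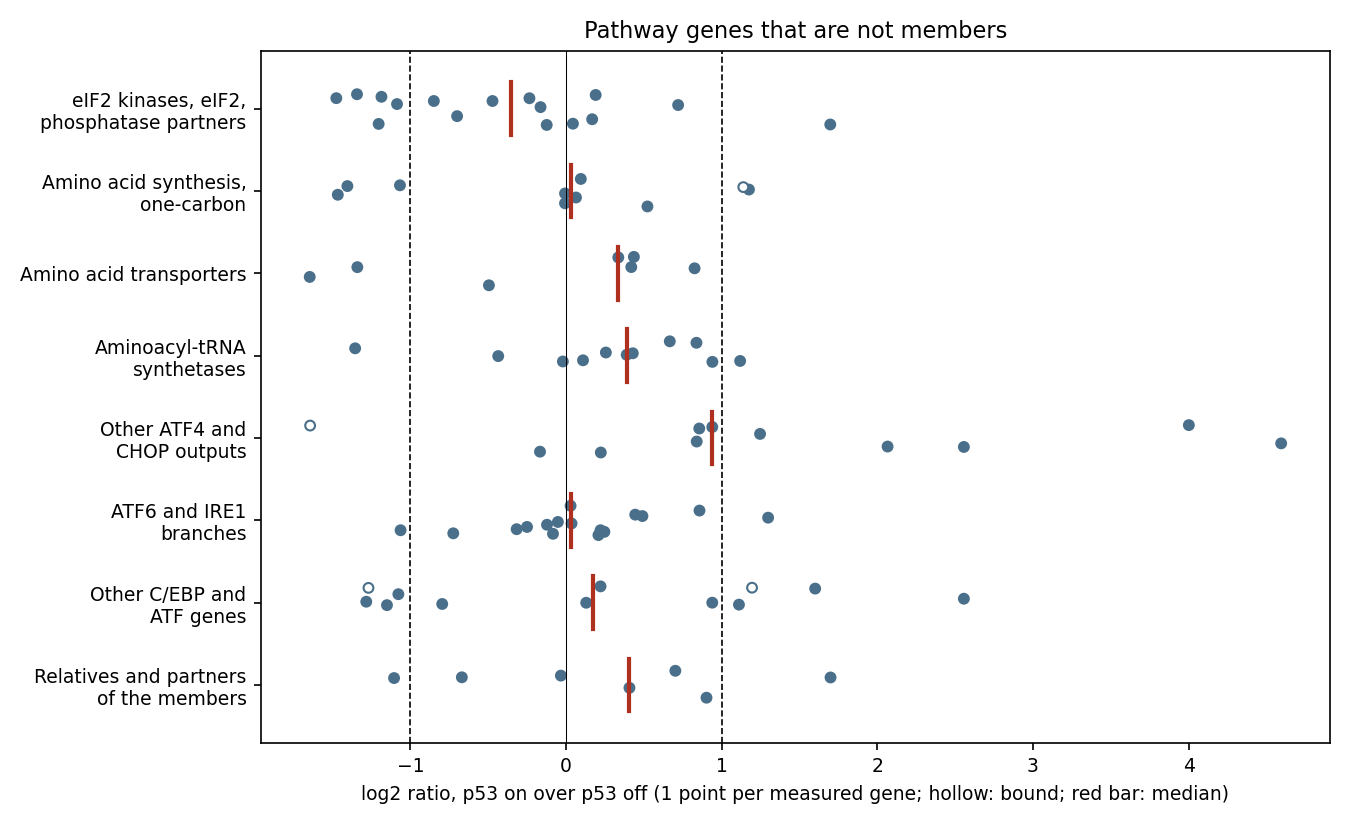
Each point is the log2 ratio of p53 on over p53 off for 1 measured gene of the 8 pathway lists, with bounds hollow, the 2-fold lines dashed and each list's median as a red bar. The list of other ATF4 and CHOP outputs has its median at 0.94, the eIF2 list at -0.35, and most genes of the ATF6 and IRE1 branches lie within 2-fold.

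Of the 10 processing alternatives, 7 altered the value of PPP1R15A and 6 that of CHAC1, and both genes passed 2-fold under each of these, at -2.80 to -1.63 and at 1.13 to 2.26. The ratio of CEBPB passed it under 5 and that of DDIT3 under 4 of the 6 alternatives that altered them, and under spike-in scaling they stood at 0.63 and 0.14. Under that scaling ATF4, ASNS and VLDLR were at -0.92, -0.81 and -0.29, below 0 but close to or above the shifted median of all genes. ATF5, just short of 2-fold as reported, passed it under 4 of the 7 that altered its value. TRIB3 passed 2-fold downward under 2 of the 7 that altered its own. All alternatives reprocess the same 2 arrays, and some altered a value little. Centring and a pseudocount of 1 each left CHAC1 at 2.046, beside 2.05 as reported.

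**Figure D4:**
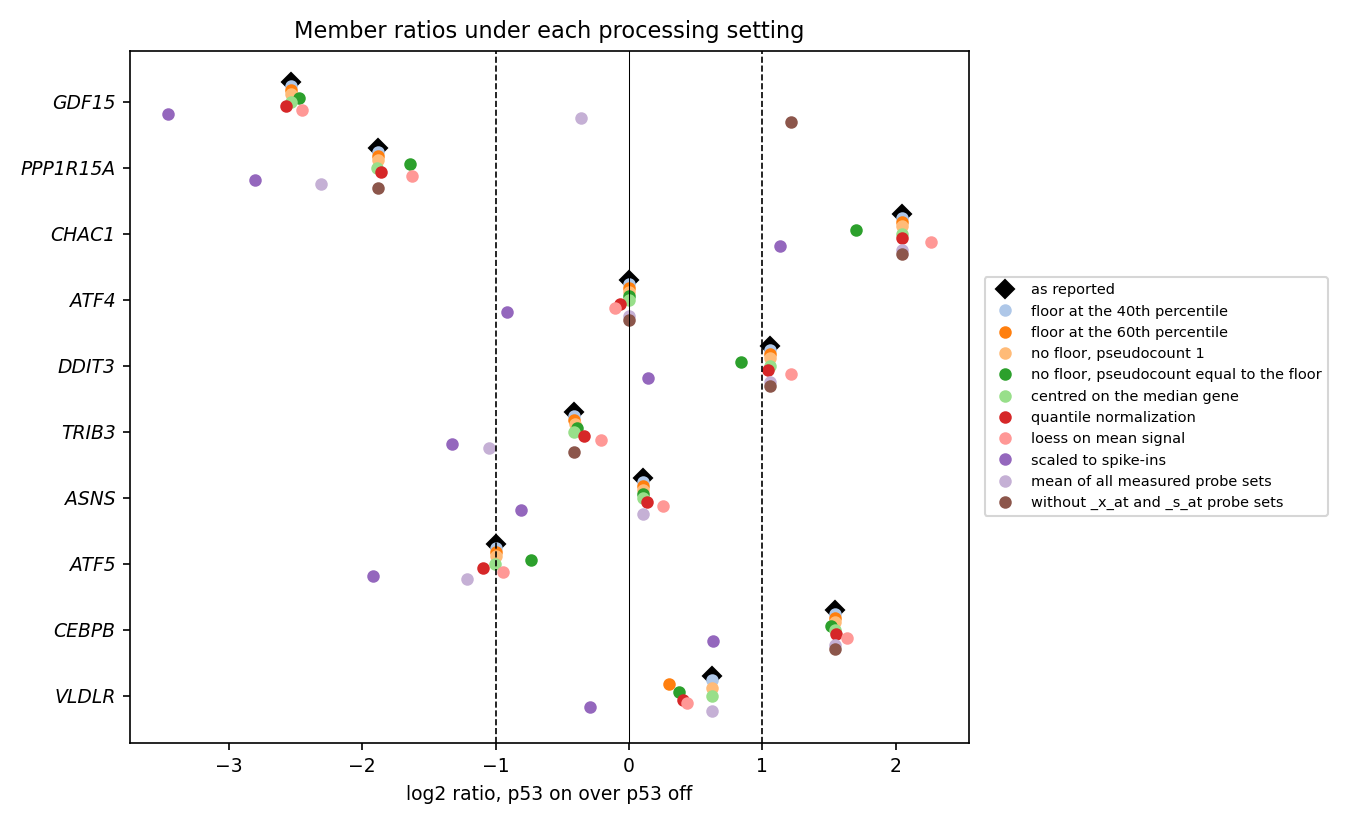
Each row is a member and each point its log2 ratio of p53 on over p53 off under 1 processing setting, with the reported value as a black diamond and the 2-fold lines dashed. GDF15 has points on both sides of 0, at 1.22 without probe sets marked for shared sequence and at -3.45 with scaling to spike-ins, while PPP1R15A and CHAC1 stay beyond the 2-fold lines.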

How the data were processed

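RNA of the p53 on and p53 off cells came from a Trizol preparation and was labelled for Affymetrix arrays, per the labels' protocols. The intensity values deposited by the authors are linear MAS5 signals, per the submitters' processing notes, with no version given in the sources used here. Both arrays had a trimmed mean signal of 500.1 without the lowest and highest 2% of 54675 probe sets, and no further normalization was added. Gene names came from GEO's annotation of the platform and RefSeq symbols were taken by Entrez identifier, found for 41037 of 41091. Signals were floored at the 50th percentile and log2 ratios taken of p53 on over p53 off. With 1 array per condition there was no test and no error between conditions, and the number of arrays limits the precision. Of each pathway list, the text names the 2 highest and the 2 lowest ratios past 2-fold, and others past it where 5 or fewer. List genes named within 2-fold were picked with their values known. The members and lists were chosen with earlier results of these data known. The procedure was tested on simulated data that changed only bright genes and added no 3′ to 5′ difference between arrays. Spike-in scaling was left out there, so the simulation does not cover that setting or changes near the floor. The gene of the p53 transgene is not reported here. Python 3.11.15, numpy 2.4.6, pandas 2.3.3, statsmodels 0.14.6 and matplotlib 3.10.9 were used. The 10 alternatives were other floors (40th and 60th percentile), a pseudocount of 1 or of the floor, centring, quantile normalization, loess (span 0.3), spike-in scaling, the mean of a gene's probe sets, and leaving out probe sets marked for shared sequence.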

Additional observations from a re-analysis of the deposited data

Results flagged for a closer look

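Control probe sets, which belong to no gene described here, differed between the arrays. The spike-ins among them set 1 of the scaling alternatives. For beta-actin the 3′ probe set read 7.29 times the 5′ one with p53 on, against 1.37 times with p53 off. For GAPDH it read 1.77 times, against 0.97 times. Over 18 probe sets for hybridization spike-ins, the p53 on over p53 off ratio had a median of 1.89 and ran from 1.47 to 2.59.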

How the results depend on the processing

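No paired analysis was possible because each condition has 1 array. Scaling to the spike-ins shifts the median of all measured genes to -0.80. It left 1 member past 2-fold upward and 4 downward, with a median of -0.86. The pathway genes had 4 higher and 35 lower, with a median of -0.84. Of all measured genes, 5.86% passed 2-fold upward and 41.4% downward under that scaling. Leaving out probe sets marked for shared sequence left 7 measured members, with a median of 1.06 and 1 at least 2-fold lower. It left 9 pathway genes at least 2-fold higher and turned GDF15 to 1.22. Of all measured genes, 15.4% passed 2-fold upward and 12.4% downward in that setting. There the sets of genes and of probe sets both differ by construction. Under the other 8 alternatives the member medians lay between 0.034 and 0.076. A change was counted as moved where it exceeded 0.84 on the log2 scale, the spread between probe sets of 1 gene, or 1.5 times a count. An array has no read depth, and VLDLR and the dimmer probe sets of GDF15 lie close to the floor.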

Other observations

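The ATF5 probe set 204999_s_at and the brightest JDP2 probe set had the same signals to 3 significant digits on both arrays, 91.7 with p53 on and 351 with p53 off. No explanation was tested.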
